A study of Mus musculus with 23 samples.

Results

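The 9 genes Angpt1, Tek, Procr, Slamf1, Hlf, Fgd5, Esam, Robo4 and Adgrg1 are used to recognise haematopoietic stem cells or act in the signals that hold them in their niche, and their levels were followed through normal, Cebpa-deleted, MLL-AF9-expressing and leukaemic mouse progenitors. Each gene was read from the probe sets whose only gene symbol it is, keeping the one with the highest mean. Each had 1 such probe set, so 9 of the 19937 genes measured are described. The values are log2 levels made by RMA, a method that subtracts background, equalises the arrays and summarises the probes of a probe set, so a level can be compared between arrays but not between genes.

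Expression was measured in sorted bone marrow cells on 23 arrays in 9 groups. Knockout (KO) mice carried Mx1-Cre and floxed Cebpa alleles, and control mice carried the floxed alleles without Cre. Mx1 is an interferon-inducible promoter that is active in many cell types, and donors of both genotypes had received 3 injections of poly I:C, which induces interferon. Leukaemic granulocyte-macrophage progenitors (L-GMPs) of KO origin came from 2 secondary recipients and 1 primary mouse, and these 3 arrays stand for 1 leukaemia, which had been obtained by injecting vectors that express IL-3 and GM-CSF. Control L-GMPs came from 2 secondary and 2 primary recipients of MLL-AF9-transduced control cells. Common myeloid progenitors (MLL-AF9 KO CMPs, 3 arrays) and lineage-negative, Sca-1-positive, c-kit-positive cells (MLL-AF9 KO KSLs, 2 arrays), a fraction rich in stem cells, came from recipients of MLL-AF9-transduced KO cells that had not developed leukaemia. For the transplanted groups, donor cells (KSLs, as far as the labels state it) had been cultured with cytokines that included 100 ng/ml SCF and 10 ng/ml IL-3, infected with an MLL-AF9 and GFP retrovirus and given to irradiated recipients together with congenic marrow. The labels state sorting for GFP for the KSLs, the MLL-AF9 CMPs and the primary KO L-GMPs. KO CMPs (4 arrays), control GMPs (3 arrays) and control CMPs (4 arrays) came from untransplanted mice, 5 days after poly I:C. Apart from the mouse numbers of the MLL-AF9 KO progenitors and the 1 leukaemia behind the KO L-GMPs, the labels do not say which arrays share a donor, so p-values describe the spread between these arrays, which may be technical in part. Transplanted and untransplanted groups also differ in culture, infection and host, and no batch was given, so these cannot be told apart from the cell type or the fusion in comparisons across them. The p-values were two-sided.

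Angpt1 encodes angiopoietin-1, a secreted ligand, and Tek encodes its receptor tyrosine kinase TIE2. Signalling between them is known for keeping stem cells quiescent and attached to their niche in bone marrow, and for stabilising the endothelium of blood vessels. C/EBPα, the product of Cebpa, is a transcription factor needed for the step by which CMPs form GMPs. Among the other genes, Hlf encodes a PAR bZIP transcription factor of stem cells, and Adgrg1 (GPR56), Slamf1 (CD150) and Procr (EPCR, CD201) encode surface receptors. Esam encodes an endothelial adhesion molecule of cell junctions, Robo4 an endothelial roundabout receptor that also acts in the homing of stem cells, and Fgd5 an activator of the small GTPase CDC42, and these are found on or in both stem cells and endothelium.

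In the RefSeq annotation of GRCm38.p6, Angpt1 lies at chr15:42424667-42676977, Tek at chr4:94739086-94874976 and Hlf at chr11:90336535-90390917. Adgrg1 lies at chr8:94974756-95014208, Slamf1 at chr1:171767131-171801184, Procr at chr2:155751125-155755478 and Fgd5 at chr6:91978827-92076005. Robo4 at chr9:37401902-37414023 and Esam at chr9:37528089-37538319 are neighbours on chromosome 9, 114.065 kb apart with 2 protein-coding genes between them, Robo3 and Msantd2. RefSeq promoter windows of 300 bases, from 250 before to 50 after an annotated start, were held for 7 of the 9 genes in 8 windows. Those of Tek, Hlf and Adgrg1 are shown because these genes passed the test in a comparison below and C/EBPα, deleted in the knockouts, acts at promoters and enhancers. Capitals mark matches on either strand to 6 short motifs of blood transcription factors.
Tek (chr4:94739039-94739338, plus strand): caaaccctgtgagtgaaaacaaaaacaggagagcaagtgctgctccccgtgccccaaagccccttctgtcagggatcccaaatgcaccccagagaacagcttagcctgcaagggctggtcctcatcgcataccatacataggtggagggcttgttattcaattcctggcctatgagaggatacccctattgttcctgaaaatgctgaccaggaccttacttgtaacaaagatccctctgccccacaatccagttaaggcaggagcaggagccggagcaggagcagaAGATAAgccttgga
Hlf (chr11:90390868-90391167, minus strand): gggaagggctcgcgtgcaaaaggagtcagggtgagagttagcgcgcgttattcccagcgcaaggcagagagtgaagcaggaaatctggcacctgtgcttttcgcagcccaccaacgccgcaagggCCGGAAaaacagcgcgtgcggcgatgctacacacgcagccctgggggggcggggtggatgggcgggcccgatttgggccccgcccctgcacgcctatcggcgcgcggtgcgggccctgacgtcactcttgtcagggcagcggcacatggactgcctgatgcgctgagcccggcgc
Adgrg1, upstream start (chr8:94976859-94977158, plus strand): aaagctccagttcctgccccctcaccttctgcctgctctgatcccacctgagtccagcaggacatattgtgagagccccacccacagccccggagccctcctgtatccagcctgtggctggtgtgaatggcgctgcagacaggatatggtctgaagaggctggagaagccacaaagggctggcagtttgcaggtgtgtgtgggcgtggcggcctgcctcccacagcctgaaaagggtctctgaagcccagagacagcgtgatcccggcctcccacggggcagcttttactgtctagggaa
Adgrg1, downstream start (chr8:94984149-94984448, plus strand): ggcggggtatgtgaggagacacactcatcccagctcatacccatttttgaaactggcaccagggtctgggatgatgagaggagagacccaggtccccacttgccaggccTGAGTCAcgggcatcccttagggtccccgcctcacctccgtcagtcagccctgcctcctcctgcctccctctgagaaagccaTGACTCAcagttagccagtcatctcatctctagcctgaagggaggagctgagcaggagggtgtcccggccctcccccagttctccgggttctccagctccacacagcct
The C/EBP motif TTGCNNAA occurred in 10.8% of all 32851 windows of this length and in none of the 4 printed here, and of the 7 genes with a window Procr alone had a match. Angpt1 and Esam had no window in the table used. The GATA motif AGATAA (11.2% of all windows) matched in the Tek window, the ETS motif CCGGAA (14.9%) in the Hlf window and the AP-1 motif TGACTCA (5.2%) at 2 places in the downstream Adgrg1 window and in that of Procr. The E-box CAGCTG bound by TAL1 (16.3%) matched in the windows of Procr, Robo4 and Slamf1, and the RUNX motif TGTGGT (16.8%) in no window of these genes. No motif overlapped another in the printed windows. A match describes letters in a window and not a bound site.

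The 9 genes fell into 3 kinds by how far their group means spread. The means of Angpt1 spanned 6.23 log2 units between the highest and the lowest group (75.0-fold), a span larger than that of 99.9% of all genes, and those of Adgrg1 spanned 4.53 (23-fold), larger than 99.6%. Slamf1 spanned 1.74, Hlf 1.56, Tek 1.37 and Esam 0.90, against a median of 0.69 over all genes. Fgd5 (0.44), Robo4 (0.39) and Procr (0.24) spanned less than the median gene. The 9 genes therefore differed in how far they moved, which does not measure whether their profiles share a shape. The Pearson r of Angpt1 over the 9 group means was 0.95 with Adgrg1, 0.81 with Hlf, 0.77 with Slamf1 and 0.68 with Tek. It was 0.56 with Esam, 0.54 with Robo4, 0.16 with Fgd5 and -0.08 with Procr, and it carries no test.

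Cebpa, read as a check of the genotype, lay at 4.33 to 5.55 on the 12 arrays of KO origin and at 7.19 to 7.96 on the 11 control arrays, without overlap. The mean over 8 granulocyte-monocyte markers (Elane, Mpo and others) was 9.56 to 10.37 on L-GMP arrays and 10.47 to 10.55 on GMP arrays, against 5.18 to 6.41 in MLL-AF9 KO progenitors, 6.57 to 7.70 in KO CMPs and 9.49 to 10.01 in control CMPs. The mean over 6 erythroid markers was 4.84 to 5.60 in L-GMPs and GMPs and 6.38 to 8.73 in the CMP and KSL groups. Endothelial cells also carry several of these genes, and stromal niche cells make Angpt1. The mean over 14 endothelial markers lay between 4.92 and 5.28 on every array, and that over 8 stromal markers between 4.60 and 5.13. None of these markers passed in KO against control CMPs, in GMPs against CMPs or in MLL-AF9 KO CMPs against KSLs. Single markers passed in the other comparisons. In control L-GMPs against control GMPs, where 25.3% of all genes passed, 5 of the 14 endothelial markers fell (Plvap, Tie1, Sox17, Sox18 and Ptprb) and Stab2 rose. There 2 of the 8 stromal markers, Col1a1 and Col1a2, rose by 0.65 and 0.53. Pecam1 rose by 0.90 in KO against control L-GMPs, and the stromal marker Pdgfrb fell by 1.54 in KO L-GMPs against MLL-AF9 KO progenitors. Their part in the results for the 9 genes was not tested. Cdh5, the defining cadherin of endothelium, ranged from 4.05 to 4.63 and Cxcl12, the gene of a niche chemokine, from 4.17 to 4.56. Ly6a, the gene of Sca-1, had no probe set of its own here, so the KSL gate was not checked by it. The control L-GMP and MLL-AF9 KO progenitor groups had median absolute residuals of 0.09 to 0.16, against 0.07 to 0.08 in the untransplanted groups and in secondary KO L-GMPs, and the primary KO L-GMPs, with 1 array, have none. Xist, an RNA of female cells, was at 10.07 to 11.16 on 16 arrays (Xist-high) and at 4.30 or less on the other 7 (Xist-low), which were 3 of the 4 KO CMP arrays, 1 of the 4 control CMP arrays, both secondary control L-GMP arrays and 1 of the 2 primary ones. Sex, read by Xist, was therefore uneven between the groups, and a fit with it as a covariate, added after the data were seen, is given where it changes a call.

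**Figure D1:**
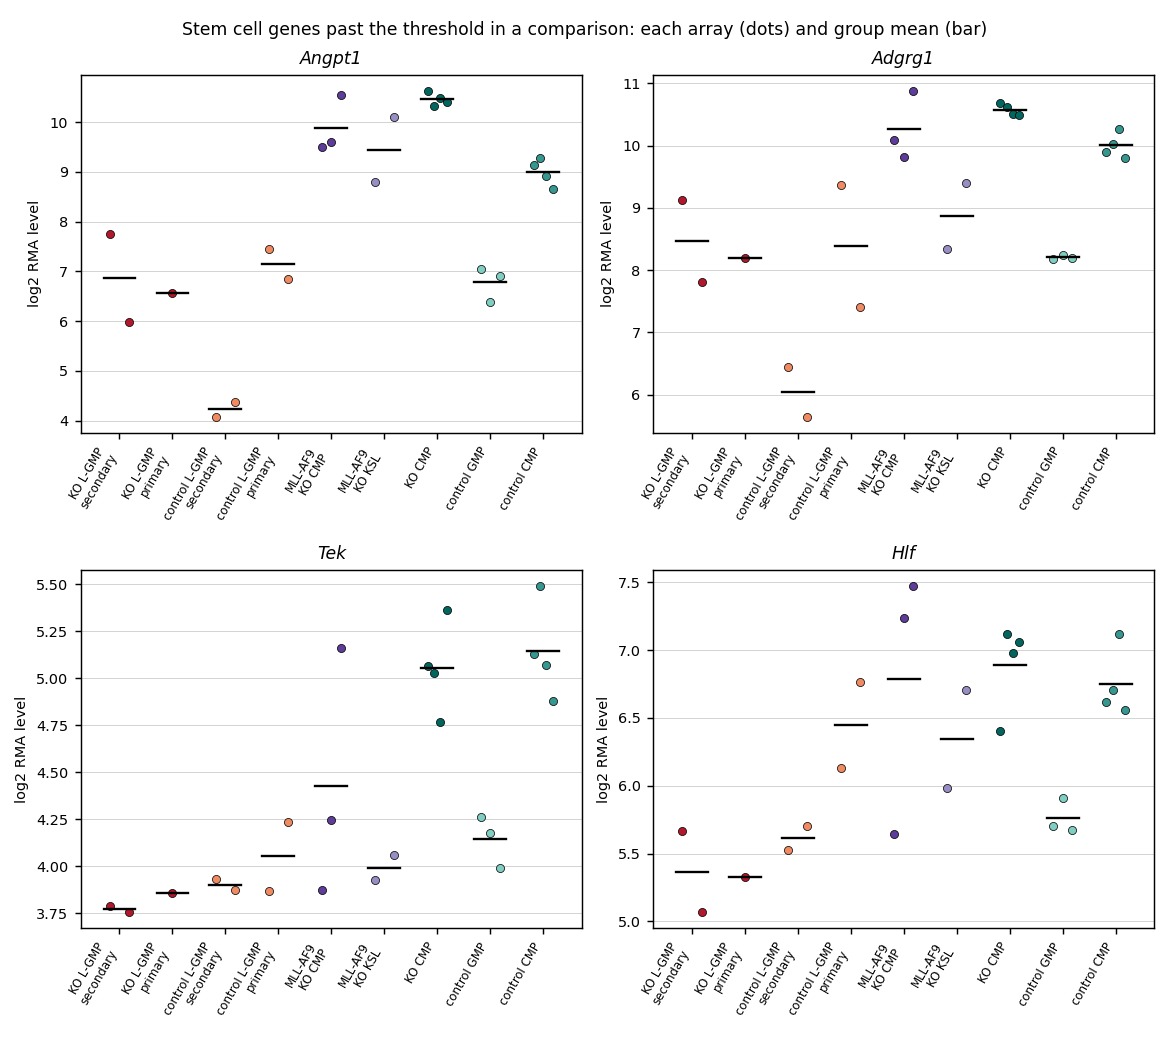
Log2 RMA level (vertical axes, 1 scale per gene) of Angpt1, Adgrg1, Tek and Hlf on each of the 23 arrays (dots) in the 9 groups, with bars at the group means. Angpt1 and Adgrg1 are high in all CMP groups and lowest in secondary control L-GMPs, whose means are 4.23 and 6.05, while Tek is above 4.7 on all arrays of untransplanted CMPs and on 1 array of MLL-AF9 KO CMPs.

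Of the 9 genes, 1 passed the test in KO against control CMPs (limma, Benjamini-Hochberg adjusted p below 0.05), where 4.91% of all genes passed, and the arrays of 3 (Angpt1, Slamf1 and Adgrg1) did not overlap, against 21.1% of all genes. In control GMPs against control CMPs 3 of 9 passed, against 1.05% of all genes, all 9 differences were negative, and the arrays of 5 did not overlap, against 16.3%. In MLL-AF9 KO CMPs no gene of the 9 passed against MLL-AF9 KO KSLs (3.32% of all genes) or against KO CMPs (4.88%). In KO against control L-GMPs none of the 9 passed (3.27% of all genes). At an unadjusted limma p below 0.05 there were 1 of 9 against KSLs, where 4029 of all 19937 genes were below it. Against KO CMPs there were 3 of 9 and 3872 of all genes, and in KO against control L-GMPs 2 of 9 and 3824. Against MLL-AF9 KO progenitors, taken as the mean of the KSL and CMP groups, 2 of 9 passed in control L-GMPs (19% of all genes) and 2 of 9 in KO L-GMPs (13.2%), and against control GMPs 1 of 9 passed in control L-GMPs (25.3%). Against shares of that size these counts are not a result about the 9 genes as a set. The arrays did not overlap for 1 of 9 in MLL-AF9 KO CMPs against KO CMPs (16.3% of all genes), for 1 in KO against control L-GMPs (13.9%), for 1 in control (7.73%) and 3 in KO L-GMPs (12.6%) against MLL-AF9 KO progenitors, and for 0 in control L-GMPs against GMPs (30.8%). The median difference of the 9 genes lay between -0.55 (GMPs against CMPs) and 0.43 (MLL-AF9 KO CMPs against KSLs), and the median of all genes between -0.02 and 0.01 in these 8 comparisons. These comparisons share groups (control CMPs, KO CMPs, control L-GMPs and the MLL-AF9 KO progenitors each serve in more than 1) and are not independent of each other.

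**Figure D2:**
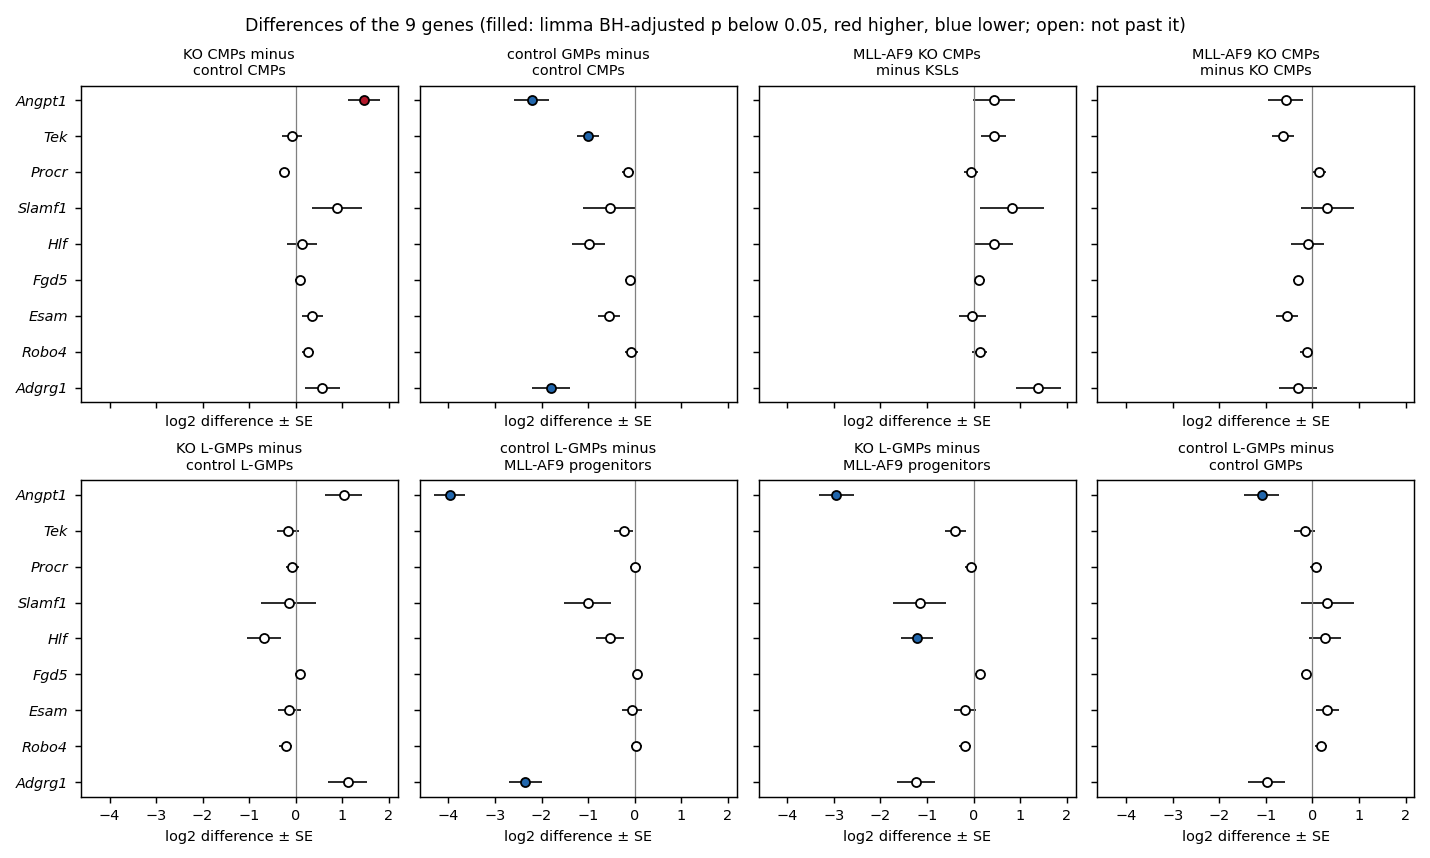
Log2 difference with its standard error (horizontal axes) of the 9 genes in 8 comparisons, each panel titled with the groups subtracted. Filled points passed the limma test after Benjamini-Hochberg adjustment, red if higher and blue if lower in the first-named group. Angpt1 passed in 5 of the 8 panels, from 1.47 in KO CMPs to -3.97 in control L-GMPs, while Procr, Fgd5 and Robo4 stay close to 0.

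Angpt1, the ligand, had log2 levels of 10.63, 10.33, 10.48 and 10.41 in KO CMPs, against 9.14, 9.27, 8.91 and 8.66 in control CMPs. Every KO array lay above every control array. The difference was 1.47 ± 0.35 (SE, n = 4 each), or 2.76-fold, with a limma adjusted p of 0.0227. This call ended in 5 of 8 fits that left out 1 array, those without control array 3 or 4 or KO array 1, 2 or 3 (adjusted p 0.0532 to 0.0807), with the difference between 1.36 and 1.56 throughout. With sex by Xist as a covariate the difference was 1.46 and the call ended (adjusted p = 0.0715). Within 1 sex it was 1.31 among the 4 Xist-high arrays (1 KO, 3 control) and 1.82 among the 4 Xist-low arrays (3 KO, 1 control). In the same comparison 6 of the 8 granulocyte-monocyte markers fell, the neutrophil elastase gene Elane by 4.85, and their part in the result was not tested. In sorted bulk cells, a change in the share of a cell type and a change of RNA per cell cannot be told apart.

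In control GMPs Angpt1 was at 7.05, 6.39 and 6.91, against the control CMP levels just given. No GMP array reached a CMP array. The level fell by 2.21 ± 0.38 in GMPs (4.63-fold, limma adjusted p = 0.00809), and the call ended without GMP array 2 (adjusted p = 0.0696). In the same comparison 3 of the 6 erythroid markers fell (Car1 by 3.98, Car2 by 2.99 and Gata1 by 1.83), as did 1 of the 8 megakaryocyte markers, Pf4, by 3.73. Their part in the falls of Angpt1, Tek and Adgrg1 was not tested.

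In MLL-AF9 KO CMPs Angpt1 was at 9.51, 9.60 and 10.55, against 8.80 and 10.10 in MLL-AF9 KO KSLs. The groups overlapped, and the difference of 0.44 ± 0.45 had a 95% interval from -0.53 to 1.40. Against KO CMPs without the fusion it was -0.58 ± 0.38, with a 95% interval from -1.38 to 0.23, and the groups overlapped too. Neither passed the limma test (adjusted p = 0.636 and 0.434).

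In KO L-GMPs Angpt1 was at 7.76 and 5.98 in the secondary recipients and 6.58 in the primary mouse, against 4.08 and 4.38 in secondary and 7.46 and 6.85 in primary control L-GMPs. The KO arrays lay above the secondary control arrays and overlapped the primary ones. The knockout effect of 1.03 ± 0.39 did not pass (limma adjusted p = 0.168). With secondary recipients alone it was 2.63 (adjusted p = 0.00756), and without KO secondary array 2 it was 1.47 (adjusted p = 0.0384). All KO arrays were Xist-high and both secondary control arrays Xist-low, so sex and knockout cannot be told apart among secondary recipients. The 3 KO arrays are also 1 leukaemia, obtained with vectors that express IL-3 and GM-CSF. In every knockout effect in L-GMPs given here, genotype therefore cannot be told apart from that leukaemia or those vectors. Among Xist-high arrays, the 3 KO arrays and 1 control array (primary array 2), the difference was -0.08. The effect differed from that in CMPs by -0.44 ± 0.53 (KO effect in L-GMPs minus KO effect in CMPs, limma adjusted p = 0.731). None of the 9 genes passed that test of the difference (2.8% of all genes). At an unadjusted p below 0.05 there was 1 of 9, Robo4, and 3249 of all 19937 genes.

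Secondary control L-GMPs were 2.92 ± 0.50 below primary ones for Angpt1 (7.57-fold, n = 2 each, limma adjusted p = 0.0032) and 2.34 ± 0.53 below for Adgrg1 (5.08-fold, adjusted p = 0.0151). This comparison was chosen after the values were seen, 2 of 9 genes passed in it against 7.7% of all genes, and the arrays of 5 did not overlap, against 41.5%. Both calls ended with array weights (adjusted p 0.0673 and 0.0802) and when only these 4 arrays were fitted (0.405 and 0.448). Without primary array 1 or secondary array 2 the Adgrg1 call ended too (adjusted p 0.0865 and 0.143), and the difference without primary array 1 was -1.36. Both secondary arrays and primary array 1 were Xist-low, and among these 3 the differences were -3.22 for Angpt1 and -3.33 for Adgrg1. With sex by Xist as a covariate both genes passed (adjusted p = 0.00954 and 0.0198).

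Against the MLL-AF9 KO progenitors without leukaemia, Angpt1 fell by 3.97 ± 0.34 in control L-GMPs (15.7-fold, limma adjusted p = 7.61e-07) and by 2.95 ± 0.38 in KO L-GMPs (7.70-fold, adjusted p = 5.88e-05). The highest L-GMP array, 7.76, lay below the lowest progenitor array, 8.80. The first call held in the 16 alternative fits, and the second in 14 of 15, ending when only these groups were fitted (adjusted p = 0.0963). All 8 granulocyte-monocyte markers rose and 6 of 6 erythroid markers fell in control L-GMPs, and 8 of 8 and 5 of 6 in KO L-GMPs, and their part in these differences was not tested. Control L-GMPs also differ from these progenitors in genotype, so Cebpa and leukaemic state cannot be told apart in that comparison. The KO L-GMP arrays stand for a single leukaemia, obtained with vectors that express IL-3 and GM-CSF. In every comparison of KO L-GMPs with these progenitors given here, leukaemic state therefore cannot be told apart from that leukaemia or those vectors.

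Against control GMPs, Angpt1 was 1.09 ± 0.38 lower in control L-GMPs (2.13-fold, limma adjusted p = 0.0458). The 2 primary arrays overlapped the GMP arrays and the 2 secondary arrays lay below them. The call ended in 6 of 7 fits that left out 1 array, all but that without primary control array 1 (adjusted p 0.0589 to 0.14), and with array weights (0.0617), and secondary recipients alone gave -2.55. It ended also with sex by Xist as a covariate (0.119). All GMP arrays were Xist-high, and the 1 Xist-high control L-GMP array was 0.07 above their mean.

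Over the 9 groups, the Angpt1 means ran from KO CMPs (10.46) through MLL-AF9 KO CMPs (9.89) and KSLs (9.45) to control CMPs (9.00), and the arrays of each neighbouring pair overlapped. A gap followed. Primary control L-GMPs (7.15), secondary KO L-GMPs (6.87), control GMPs (6.79) and the primary KO L-GMPs (6.58) overlapped in turn, and secondary control L-GMPs (4.23) lay below them all. The genes whose group means followed Angpt1 most closely, among 5136 genes spanning at least 1 log2 unit, were Zfp664 (Pearson r = 0.98 over 9 groups), Sox4 (0.98), Msi2 (0.96), Foxo3 (0.96) and Srebf2 (0.96). These are correlations of 9 shared group means and carry no test.

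Tek, the receptor of Angpt1, had low values throughout, from 3.76 to 5.49. In KO CMPs it was at 5.07, 5.03, 4.77 and 5.36, against 5.13, 5.49, 5.07 and 4.88 in control CMPs. The groups overlapped, and the difference of -0.09 ± 0.21 had a 95% interval from -0.54 to 0.36. In control GMPs Tek was at 4.26, 4.18 and 3.99, below every control CMP array, and it fell by 1.00 ± 0.23 (2.00-fold, limma adjusted p = 0.0474). That call ended in 6 of 7 fits that left out 1 array (all but that without CMP array 4; adjusted p 0.105 to 0.238).

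MLL-AF9 KO CMPs had Tek at 3.87, 4.24 and 5.16, against 3.92 and 4.06 in MLL-AF9 KO KSLs. Array 3, from mouse 4, was in the range of untransplanted CMPs, and the other 4 arrays were at or below 4.24. Against KO CMPs the difference was -0.63 ± 0.23 (limma adjusted p = 0.132), and without array 3 it was -0.998 (adjusted p = 0.00352). In L-GMPs Tek lay between 3.76 and 4.24. KO L-GMPs at 3.79, 3.76 and 3.86 stayed just below the lowest control L-GMP array, with a difference of -0.16 ± 0.24 that did not pass (limma adjusted p = 0.776). By group mean Tek ran from control CMPs (5.14) and KO CMPs (5.06) to secondary KO L-GMPs (3.77), and neighbours in that order overlapped down to secondary control L-GMPs (3.90). The closest profiles to Tek were those of Cavin1 (r = 0.98), Mmrn1 (0.97), Myct1 (0.96), Smo (0.95) and Eng (0.95).

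Of 9 other genes of the angiopoietin and TIE pathway, Dok2, an adaptor that binds activated TIE2, rose in KO CMPs at 7.29, 7.34, 7.16 and 7.20, against 6.12, 6.35, 6.17 and 5.79 in control CMPs (1.14 ± 0.21, limma adjusted p = 0.00456). No other member passed there, where 4.91% of all genes did. Tie1, the companion receptor of TIE2, was at 6.73 in KO CMPs and 6.61 in control CMPs on average, and Angpt2, an antagonist or weak agonist of TIE2, at 5.67 and 5.53. None of the 9 passed in GMPs against CMPs. Tie1 fell in MLL-AF9 KO CMPs by 0.94 ± 0.19 against KO CMPs (limma adjusted p = 0.0104), and it was the 1 of 9 that passed, against 4.88% of all genes.

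In control L-GMPs, 3 of the 9 pathway genes fell against MLL-AF9 KO progenitors, where 19% of all genes passed. They were Dok2 (by 0.81), Angpt4 (by 0.38) and Foxo1, a factor held out of the nucleus by TIE2 signalling (by 0.34). In KO L-GMPs, where 13.2% of all genes passed, Dok2 fell by 1.47, Foxo1 by 0.61 and Angptl1 by 0.80, while Tie1 rose by 0.61. Against control GMPs, Tie1 fell by 0.89, Angpt2 by 0.76 and the TIE2 phosphatase gene Ptprb by 0.31 in control L-GMPs. Dok2 rose by 0.71 there, where 25.3% of all genes passed. In KO against control L-GMPs none of the 9 passed. The knockout effect on Dok2 differed by -1.80 ± 0.32 between L-GMPs and CMPs (limma adjusted p = 0.00463).

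Hlf, the transcription factor of the set, was at 6.41, 7.12, 6.98 and 7.06 in KO CMPs, against 6.62, 6.71, 7.12 and 6.56 in control CMPs. The groups overlapped, with a difference of 0.14 ± 0.32 (limma adjusted p = 0.987). Control GMPs were at 5.71, 5.91 and 5.67, below every CMP array, but the difference of -0.99 ± 0.35 did not pass (adjusted p = 0.333). It passed with array weights (adjusted p = 0.01) and when only GMPs and CMPs were fitted (0.0288).

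KO L-GMPs had Hlf at 5.67, 5.07 and 5.33, against 5.53 and 5.70 in secondary and 6.13 and 6.77 in primary control L-GMPs. KO secondary array 1 lay above the lowest control array, and the difference of -0.68 ± 0.36 did not pass (limma adjusted p = 0.314). Against the MLL-AF9 KO progenitors Hlf fell by 1.22 ± 0.35 in KO L-GMPs (2.32-fold, adjusted p = 0.0277), with overlapping arrays. That call ended in 5 of 15 alternative fits: with array weights (0.0747), with these groups alone (0.393), with the arrays of the leukaemia averaged into 1 sample (0.256), and without KO secondary array 2 (0.105) or KSL array 2 (0.0781). In control L-GMPs the difference was -0.53 ± 0.31 (adjusted p = 0.246), and without MLL-AF9 KO CMP array 1 it was -0.82 (adjusted p = 0.0126).

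Among the MLL-AF9 KO progenitors, Hlf differed by mouse more than by cell type. Mouse 9 gave 5.65 in CMPs and 5.99 in KSLs, mouse 11 gave 7.24 and 6.70, and mouse 4 gave 7.47 in CMPs. The 2 arrays of mouse 9 were thus the lowest of the 5. They were also the lowest for Angpt1 (9.51 at most, against 9.60 or more), Slamf1 (4.53 against 4.63) and Tek (3.92 against 4.06). For Adgrg1, Procr, Fgd5, Esam and Robo4 they were not. Mecom (EVI1) and Meis1, stem cell transcription factor genes chosen here after their values were seen, split the same arrays: Mecom was at 3.65 and 4.29 in mouse 9, and at 7.95, 8.46 and 8.60 in the other two mice, and Meis1 at 4.84 and 6.04 in mouse 9, and at 8.76, 8.99 and 9.79 in the others. With 3 mice this is given as a description with no test.

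**Figure D3:**
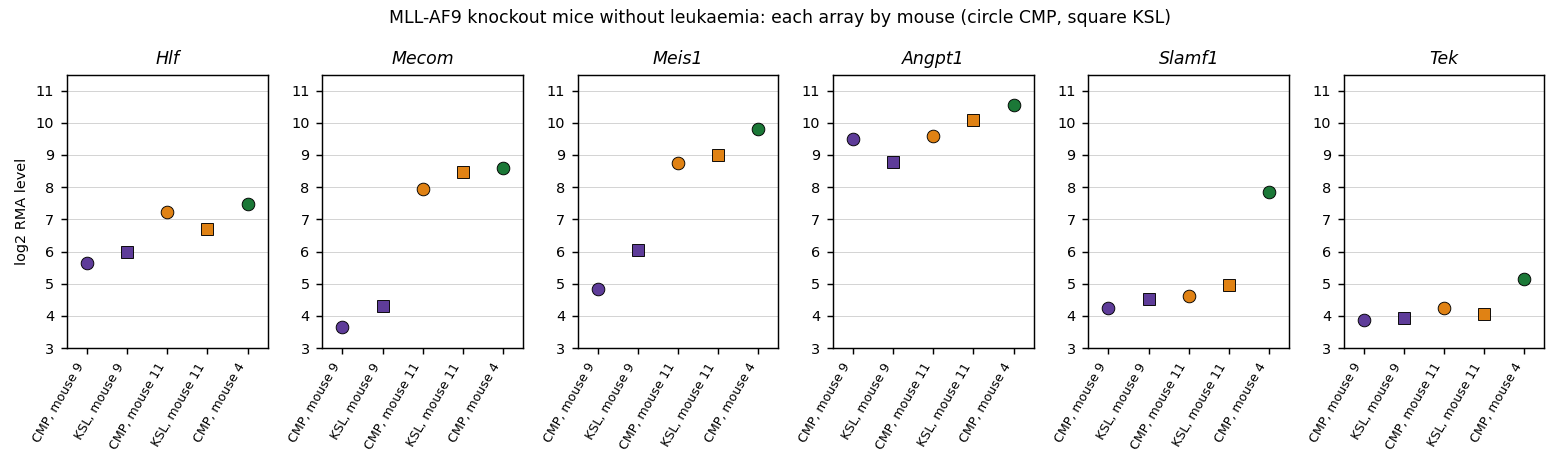
Log2 RMA level (vertical axis, same scale in each panel) of 6 genes on the 5 arrays of MLL-AF9 KO mice without leukaemia, coloured by mouse, circles for CMPs and squares for KSLs. Hlf, Mecom and Meis1 are lowest in both fractions of mouse 9, as are Angpt1, Slamf1 and Tek by smaller margins. Slamf1 (7.84) and Tek (5.16) are highest in the CMPs of mouse 4.

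Of the 3 relatives of Hlf, Nfil3, a bZIP repressor of the same sites, fell in KO CMPs at 5.15, 5.80, 5.42 and 5.35, against 7.05, 6.70, 6.83 and 7.62 in control CMPs (-1.62 ± 0.35, limma adjusted p = 0.0114). Dbp (6.06 in KO CMPs and 6.04 in control CMPs) and Tef (6.09 and 5.83) did not pass. Nfil3 rose by 1.24 ± 0.33 in control L-GMPs and by 2.14 ± 0.37 in KO L-GMPs against MLL-AF9 KO progenitors, and in KO L-GMPs Tef fell by 0.42 ± 0.13. The knockout effect on Nfil3 in L-GMPs minus that in CMPs was 2.52 ± 0.52 (adjusted p = 0.0139). In control L-GMPs Dbp fell by 0.77 ± 0.20 against control GMPs (adjusted p = 0.0139).

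Adgrg1, which encodes an adhesion receptor kept on stem cells and on many acute myeloid leukaemias, followed Angpt1 closely over the groups (r = 0.95 over 9 group means). It was at 10.68, 10.61, 10.51 and 10.49 in KO CMPs, against 9.90, 10.03, 10.27 and 9.81 in control CMPs. The arrays did not overlap, but the difference of 0.57 ± 0.38 did not pass (limma adjusted p = 0.584). It passed when the 2 CMP groups were fitted alone (adjusted p = 0.0118). Control GMPs, at 8.18, 8.25 and 8.19, lay below all control CMPs, and the level fell by 1.80 ± 0.41 (3.48-fold, adjusted p = 0.0461). That call ended in each of the 7 fits that left out 1 array (adjusted p 0.076 to 0.177) and with sex by Xist as a covariate (0.073).

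MLL-AF9 KO CMPs had Adgrg1 at 10.10, 9.81 and 10.88, against 8.34 and 9.40 in KSLs. It was higher in CMPs than in KSLs in both mice with arrays of the 2 fractions, and it was the 1 of 9 genes whose arrays did not overlap, against 19.4% of all genes. The difference of 1.39 ± 0.49 did not pass (limma adjusted p = 0.125), and without KSL array 2 it was 1.92 (adjusted p = 0.0438).

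KO L-GMPs had Adgrg1 at 9.12, 7.82 and 8.19, against 6.45 and 5.64 in secondary and 9.37 and 7.41 in primary control L-GMPs. As for Angpt1, the KO arrays were above the secondary controls and among the primary ones. The difference of 1.11 ± 0.42 did not pass (limma adjusted p = 0.165). It was 2.42 among secondary recipients alone (adjusted p = 0.0203), where sex cannot be told apart from the knockout, and 1.60 without primary control array 1 (adjusted p = 0.0116).

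Against MLL-AF9 KO progenitors Adgrg1 fell by 2.35 ± 0.36 in control L-GMPs (5.09-fold, limma adjusted p = 2.70e-04), although primary array 1 lay within the progenitor range. That call ended when only these groups were fitted (adjusted p = 0.0688). In KO L-GMPs the difference of -1.24 ± 0.41 was just short of the threshold (adjusted p = 0.0574) and passed in 5 of 15 alternative fits. Against control GMPs it was -0.99 ± 0.41 in control L-GMPs (adjusted p = 0.0865), and without primary control array 1 it was -1.48 (adjusted p = 0.00574).

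Of 5 other genes of the ADGRG receptor family and its ligand Tgm2, Adgrg3 (GPR97) rose in KO CMPs by 0.76 ± 0.16 (10.09, against 9.32 in control CMPs, limma adjusted p = 0.011) and fell by 0.76 in MLL-AF9 KO CMPs against KO CMPs. None passed in GMPs against CMPs. Against MLL-AF9 KO progenitors Adgrg3 rose by 0.53 in control L-GMPs and by 0.59 in KO L-GMPs, while Tgm2 fell by 0.56 in the first and Adgrg7 by 2.05 in the second. Adgrg7 also fell by 2.16 in control L-GMPs against control GMPs (adjusted p = 0.00825). Adgrg2 rose by 0.37 in MLL-AF9 KO CMPs against KSLs (adjusted p = 0.0465).

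Slamf1 encodes CD150, which marks long-term stem cells and also megakaryocyte progenitors. It was at 5.24, 5.46, 4.81 and 5.50 in KO CMPs, against 4.31, 4.80, 4.41 and 3.95 in control CMPs. The lowest KO array was just above the highest control array. The difference of 0.89 ± 0.53 did not pass (limma adjusted p = 0.506), and it passed with array weights (0.0343) and when the 2 CMP groups were fitted alone (0.0326). The mean over 8 megakaryocyte markers was 6.88 to 7.55 in KO CMPs and 6.62 to 6.96 in control CMPs, and its part in the Slamf1 difference was not tested.

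In MLL-AF9 KO CMPs Slamf1 was at 4.24, 4.63 and 7.84, against 4.53 and 4.96 in KSLs. The array at 7.84, from mouse 4, was the highest of all 23. It also had the highest mean over the megakaryocyte markers (8.68, against at most 7.55 on any other array), with Pf4, the platelet factor 4 gene, at 11.24 and Itga2b, the gene of the platelet integrin CD41, at 9.34. Whether that cell type carries the Slamf1 level was not tested. Against KO CMPs the difference was 0.32 ± 0.57 (adjusted p = 0.824), and without this array it turned to -0.82 (adjusted p = 0.0376). Esam on the same array was at 5.68, against 4.31 and 4.58 on the other MLL-AF9 KO CMP arrays.

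All L-GMP and GMP arrays had Slamf1 between 3.75 and 4.40. KO L-GMPs were at 4.05, 3.93 and 4.00, against 3.89 to 4.40 in control L-GMPs, with a difference of -0.15 ± 0.59. Cd48, whose product pairs with SLAM receptors and is absent from long-term stem cells, was at 9.26 in KO CMPs and 8.99 in control CMPs. It fell by 1.25 ± 0.22 in control L-GMPs (limma adjusted p = 7.04e-04) and by 0.90 ± 0.24 in KO L-GMPs (0.0209), each against MLL-AF9 KO progenitors. Sh2d1b1, the gene of the SLAM adaptor EAT-2, rose by 2.56 in control and by 3.65 in KO L-GMPs in the same comparisons, and it fell by 2.59 in MLL-AF9 KO CMPs against KO CMPs (adjusted p = 0.00619). Slamf7 fell by 1.23 in MLL-AF9 KO CMPs against KSLs, Cd84 by 0.66 in control L-GMPs against MLL-AF9 KO progenitors and Slamf8 by 0.45 in control L-GMPs against control GMPs. Of the 9 other SLAM family genes, none passed in KO against control CMPs, in GMPs against CMPs or in KO against control L-GMPs.

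**Figure D4:**
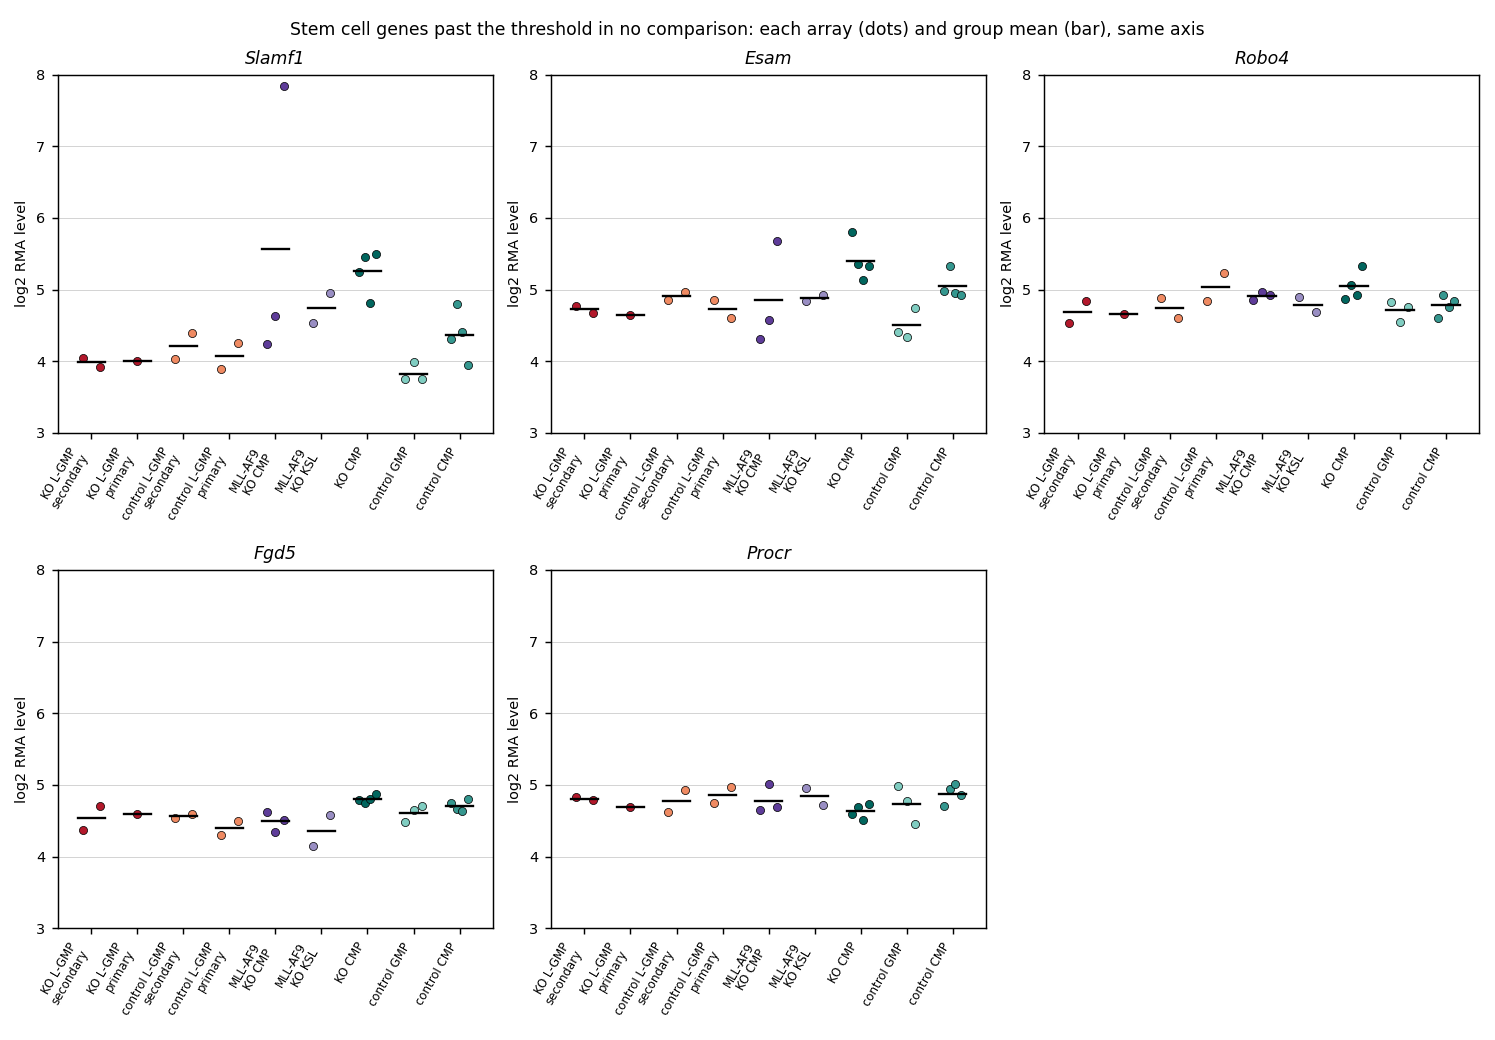
Log2 RMA level (vertical axes from 3 to 8 in each panel) of Slamf1, Esam, Robo4, Fgd5 and Procr on each array (dots) in the 9 groups, with bars at the group means. The array of MLL-AF9 KO CMPs at 7.84 for Slamf1 stands apart, while Procr, Fgd5 and Robo4 stay within 4.15 to 5.32 in every group.

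Procr had the flattest profile of the 9 genes, from 4.46 to 5.01 over all arrays. In KO CMPs it was at 4.59, 4.69, 4.51 and 4.74, against 4.70, 4.94, 5.01 and 4.85 in control CMPs, a difference of -0.24 ± 0.12 (limma adjusted p = 0.371). In MLL-AF9 KO KSLs, the fraction richest in stem cells, it was at 4.96 and 4.72, within the range of GMPs (4.46 to 4.99). Procr and Fgd5 were the 2 of 9 genes whose group means all lay below 5, where changes can be understated, so a flat profile is no measure of absence.

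Other genes of the protein C and thrombin pathway did move. F2r, which encodes the thrombin receptor PAR1 through which EPCR-bound activated protein C also signals, was at 9.81, 9.47, 9.31 and 9.63 in KO CMPs, against 7.78, 7.99, 8.03 and 7.55 in control CMPs. The groups were separate by more than 1 log2 unit, and F2r rose by 1.71 ± 0.36 (limma adjusted p = 0.00999). It was the 1 of 6 pathway genes that passed, against 4.91% of all genes. In control GMPs F2r was at 5.28, 5.47 and 5.18, and the level fell by 2.53 ± 0.39 against CMPs (adjusted p = 0.00353). In MLL-AF9 KO CMPs it was at 10.76, 8.91 and 10.07 and in KSLs at 10.37 and 8.57. L-GMPs had 4.67 to 5.97, so that F2r fell against these progenitors by 4.40 ± 0.34 in control L-GMPs (adjusted p = 2.79e-07) and by 4.90 ± 0.39 in KO L-GMPs (adjusted p = 3.78e-07).

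Thbd, the gene of thrombomodulin, which with thrombin activates protein C, moved the other way, rising by 1.80 ± 0.26 in control L-GMPs and by 2.00 ± 0.29 in KO L-GMPs against MLL-AF9 KO progenitors. In KO CMPs it was at 5.52, against 5.89 in control CMPs, and did not pass. The knockout effect on F2r differed by -2.22 ± 0.54 between L-GMPs and CMPs (limma adjusted p = 0.0343), and 6 of the 8 granulocyte-monocyte markers passed that test too, their part in it not tested. Against control GMPs, F3, the tissue factor gene, fell by 0.51 and Pros1, the gene of the cofactor protein S, by 1.39 in control L-GMPs.

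Esam was at 5.80, 5.36, 5.13 and 5.32 in KO CMPs, against 4.98, 5.33, 4.95 and 4.93 in control CMPs, and at 4.41, 4.34 and 4.75 in control GMPs. The GMP arrays lay below all control CMP arrays, yet neither the difference of 0.35 ± 0.23 for the knockout nor that of -0.55 ± 0.24 for GMPs passed (limma adjusted p = 0.557 and 0.574). Against KO CMPs, MLL-AF9 KO CMPs differed by -0.55 ± 0.24 (adjusted p = 0.228), and without array 3 by -0.96 (adjusted p = 0.00417). In L-GMPs Esam stayed between 4.60 and 4.97. Of 7 other CTX family adhesion genes, Jam3 fell by 0.72 ± 0.18 in MLL-AF9 KO CMPs against KO CMPs and by 0.58 ± 0.18 in control L-GMPs against control GMPs, and none passed in the other 6 comparisons.

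Robo4 was at 4.87, 5.06, 4.92 and 5.32 in KO CMPs, against 4.60, 4.93, 4.76 and 4.84 in control CMPs. The groups overlapped, with a difference of 0.26 ± 0.12 (limma adjusted p = 0.333). Of the 9 genes it came closest to a knockout effect that differs between L-GMPs and CMPs, at -0.48 ± 0.19 (limma unadjusted p = 0.0204, adjusted p = 0.203). In that test Robo4 was 1 of 3249 genes, among 19937, with an unadjusted p below 0.05. Its neighbour Esam on chromosome 9 showed the same sign there (-0.49 ± 0.34, limma adjusted p = 0.506), as did most of the set, with 6 of the 9 differences negative and 3 positive. Among 10 other ROBO and SLIT pathway genes, Srgap3, whose product passes ROBO signals to small GTPases, rose in KO CMPs by 1.01 ± 0.23 (6.73, against 5.72 in control CMPs, limma adjusted p = 0.0155). The knockout effect on Srgap3 differed by -1.32 ± 0.34 between L-GMPs and CMPs (limma adjusted p = 0.0489). Srgap2, its relative, fell by 0.98 in control L-GMPs against control GMPs, and Slit3 rose by 0.21 in control L-GMPs against MLL-AF9 KO progenitors. Slit2, a ligand of ROBO receptors, and Robo1 lay between 3.54 and 4.45 on every array.

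Fgd5 was at 4.80, 4.74, 4.80 and 4.87 in KO CMPs, against 4.75, 4.66, 4.64 and 4.80 in control CMPs. It lay between 4.15 and 4.71 on the arrays of all other groups. The largest difference was -0.31 ± 0.11 in MLL-AF9 KO CMPs (4.62, 4.34 and 4.51) against KO CMPs, with arrays that did not overlap and a limma adjusted p of 0.112. Of 5 other FGD family genes, Fgd4 rose by 2.84 ± 0.31 in control L-GMPs and by 2.66 ± 0.35 in KO L-GMPs against MLL-AF9 KO progenitors, and Fgd6 by 0.64 and 0.73. Against control GMPs, Fgd6 rose by 0.51 and Fgd1 fell by 0.31 in control L-GMPs.

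A list of 22 other measured stem cell genes was set beside the 9. In KO CMPs 1 of the 22 rose, Mycn (1.22 ± 0.20, limma adjusted p = 0.00166), and none fell, with a median of 0.20, where 4.91% of all genes passed in either direction. In GMPs against CMPs none of the 22 passed, with a median of -0.47. Thy1 in MLL-AF9 KO CMPs rose by 1.93 and Mycn by 1.06 against KO CMPs, while Cd34 fell by 1.83. In KO against control L-GMPs 2 of the 22 rose, Mecom by 4.29 ± 0.98 (limma adjusted p = 0.0254) and Hoxb5 by 2.30 ± 0.28 (adjusted p = 2.02e-04), where none of the 9 genes above passed and 3.27% of all genes did. The 3 KO L-GMP arrays stand for 1 leukaemia, so a rise particular to it cannot be told apart from one with the genotype.

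Against MLL-AF9 KO progenitors 7 of the 22 fell and 1 rose in control L-GMPs, where 19% of all genes passed, and the largest differences were -2.57 for Thy1, -2.46 for Kit, -2.27 for Mycn, -1.58 for Msi2, -1.45 for Gata2 and -1.38 for Mllt3. In KO L-GMPs 7 fell and 2 rose, where 13.2% of all genes passed, and the largest were -3.08 for Thy1, -2.41 for Mycn, -2.17 for Mllt3, 2.14 for Hoxb5, -1.80 for Kit and -1.59 for Gata2. Mecom, high in KO L-GMPs at 8.76, 9.60 and 8.14, was at 3.93 to 5.36 in control L-GMPs. Against control GMPs, Eya1 rose by 3.98 and Kit fell by 1.23 and Cd34 by 0.80 in control L-GMPs.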

How the data were processed

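The authors deposited log2 levels for 34760 Affymetrix probe sets, none below 3. The submitters' processing notes name RMA, with no version given in the sources used here. Total RNA had been amplified with a small-input kit, per the labels' protocols. The number of arrays limits the precision. Of the probe sets, 21640 have 1 gene symbol in the platform annotation, 1321 several and 11799 none. 21553 matched RefSeq (GRCm38.p6) by Entrez ID, and 0 symbols changed. The highest-mean probe set per gene left 19937 genes.

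Arrays were grouped by their labels. Group means were fitted over all 23 arrays with limma 3.58.1 in R 4.3.3 (trended empirical Bayes), with Benjamini-Hochberg adjustment over all genes and a threshold of 0.05. Groups on each side of a comparison had equal weight. The code was tested on simulated data. The members, lists and comparisons were chosen with earlier results of these data known. Named besides the 9 genes are Cebpa, set relatives (Tie1, Angpt2, Cd48, Slit2, Robo1, Nfil3, Dbp, Tef, F2r, Thbd and Adgrg3), list genes past the threshold, up to 6 of the largest changes among other stem cell genes, and the 5 closest profiles to Angpt1 and to Tek. Mecom and Meis1 by mouse, and the comparison of secondary with primary control L-GMPs, were added after values were seen.

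MLL-AF9 KO KSL and CMP arrays 1 and 2 come from the same 2 mice, and their deviations from the group means correlate over genes (r = 0.45 and 0.26). With the mouse number as a block, fitted to these groups alone, 0 of the 9 genes and 0 of all genes passed in that comparison. The fit over all 23 arrays without a block gave 0 of the 9 and 662 of all genes. These groups alone without a block also gave 0 of all genes, so the block is not shown to account for that fall. Other groups share numbers only. Alternatives were array weights, the compared groups alone, no dim genes, median-centred arrays, averaged probe sets, each array left out, and for L-GMPs secondary recipients alone and the 3 KO leukaemia arrays averaged into 1 sample. Sex by Xist (log2 level above or below 7) as a covariate was added after the data were seen. A further cytokine of the cultures is not reported here.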

Additional observations from a re-analysis of the deposited data

Results flagged for a closer look

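Of 18 sets of values (9 genes in the 2 groups of 4 arrays) 1 held an array far from the others. Esam in control CMPs was at 5.33 on array 2, against 4.93 to 4.98 on the other three, and the gap was 0.862 of the range of the group, above Dixon's critical value for 4 samples. Chance marks about 1 in 20 such sets. No difference of knockout effects between L-GMPs and CMPs passed for the 9 genes.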

How the results depend on the processing

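Over all alternatives, 1168 values of single genes kept their direction and their side of the threshold, 47 calls were lost, 22 were gained, 1 reversed and 65 values moved. The reversed value was that of Slamf1 in MLL-AF9 KO against KO CMPs, at -0.817 without MLL-AF9 KO CMP array 3 (range -0.817 to 0.984 when 1 array was left out). The number of the 9 genes that passed changed as follows. In KO against control CMPs it was 1, and became 2 with array weights, 3 with these groups alone, 2 with the replicate number as a block, 0 with sex by Xist as a covariate, and 0 to 1 when 1 array was left out. In GMPs against CMPs it was 3, and became 4 with array weights and with these groups alone, 2 with sex by Xist as a covariate, 0 under the replicate block, and 0 to 2 when 1 array was left out. In MLL-AF9 KO CMPs it was 0, with 0 to 1 against KSLs and 0 to 3 against KO CMPs when 1 array was left out. In KO against control L-GMPs it was 0, with 2 in secondary recipients alone and 0 to 1 when 1 array was left out. Against MLL-AF9 KO progenitors it was 2 for control L-GMPs, with 1 when these groups were fitted alone and 2 to 3 when 1 array was left out, and 2 for KO L-GMPs, with 1 under array weights, 0 with these groups alone, 1 with the leukaemia averaged, and 1 to 3 when 1 array was left out. In control L-GMPs against GMPs it was 1, with 2 in secondary recipients alone, 0 with sex by Xist as a covariate and 0 to 2 when 1 array was left out. In secondary against primary control L-GMPs it was 2, with 0 under array weights, with these groups alone and under the replicate block, and 1 to 2 when 1 array was left out. Counts over all genes moved more widely: 979 in KO CMPs (530 to 3762), 209 in GMPs (0 to 1257), 662 and 972 in MLL-AF9 KO CMPs against KSLs (0 to 2850) and KO CMPs (0 to 2035), 651 in KO against control L-GMPs (11 to 2449), 3780 and 2632 in control (493 to 4922) and KO L-GMPs (347 to 3276) against progenitors, 5052 in control L-GMPs against GMPs (2764 to 6494), 558 for the difference of knockout effects (159 to 1603) and 1536 in secondary against primary control L-GMPs (0 to 3074). Fits on few arrays leave few residual degrees of freedom, and a group left with 1 array is assumed to vary like the others. The labels do not tie the replicate block to shared animals outside the MLL-AF9 KO mice. Under it, fitted to the compared groups alone, 2220 genes passed in KO CMPs and 0 in the other 4 comparisons it was fitted to. Without the block, the compared groups alone also gave 0 in MLL-AF9 KO CMPs against KSLs and in secondary against primary control L-GMPs. The deviations of same-numbered arrays did not all correlate (-0.21 to 0.08 in KO against control CMPs). Centring the arrays moved the median of all genes by at most 0.07. Leaving out dim genes removed Procr and Fgd5. For the low levels of Tek, Procr, Fgd5 and Robo4, nearness to background limits what a small difference can show.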
